A study of Mus musculus with 7 samples.

Results

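The guanylate-binding proteins (Gbp genes) and the immunity-related GTPases (Irg genes) were followed in sorted Pax7-GFP+ cells of normocapnic and hypercapnic mice. The rule took the rows of the deposited table whose gene symbol was Gbp2, Gbp3, Gbp5, Gbp6, Gbp7, Igtp, Irgm1, Irgm2 or Iigp1. Of these 9 genes, 6 had values, among 23930 genes in all: 4 guanylate-binding proteins (Gbp2, Gbp3, Gbp5 and Gbp7) and 2 immunity-related GTPases (Igtp and Irgm1). Gbp6, Irgm2 and Iigp1 are not analysed here.

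The mice were littermates, given as C57/B6 in the growth notes and as C57BL followed by a number that differs in each library in the genotype label, that carried an inducible Pax7-GFP reporter, in which tamoxifen-activated Cre made at the Pax7 locus switches on GFP permanently, so that GFP also stays on in cells that no longer express Pax7. All mice of both groups received tamoxifen at 12 weeks of age, spent 4 weeks in normocapnia (room air, libraries NC1 to NC3) or in hypercapnia (air enriched in CO2, libraries HC1 to HC4), and gave cells at 16 weeks. Following the study's methods, hind leg muscles of both groups had been injured with cardiotoxin, a toxin that destroys myofibers, before the GFP+ cells were sorted, whereas the sample labels do not name this injury. The title of the deposited table names a number of hours that in the study belongs to cultures of isolated cells, whereas its methods and the labels describe sorting straight from muscle, and this difference could not be settled here. Bulk RNA was read with 1 short amplicon per gene and given as RPM, the reads of a gene after each library is scaled to the same total, and the labels do not say whether each library came from its own mouse, so that the spread between libraries may be partly technical.

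Guanylate-binding proteins and immunity-related GTPases are GTP-hydrolyzing proteins of cell-autonomous immunity. Cells make little of them at rest, and interferons, above all interferon-gamma, raise their transcription through short promoter elements known as GAS (gamma-activated sequence) and ISRE (interferon-stimulated response element). The proteins assemble on the membranes of vacuoles that hold intracellular pathogens, and this step uses the ubiquitin-like conjugation machinery of autophagy. Irgm1 and Igtp (also known as Irgm3) belong to the regulatory group of Irg proteins that sit on the cell's own membranes and hold the effector members inactive there, and Irgm1 is also known for its part in autophagy and mitochondrial upkeep. In skeletal muscle, interferon-gamma comes mainly from immune cells that enter after injury.

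The stretches upstream of the start sites are shown because the members are known interferon targets and several lie near each other in the genome. In RefSeq on GRCm38.p6, Gbp5, Gbp7, Gbp3 and Gbp2 lie in this order on chromosome 3, with Gbp2b between Gbp3 and Gbp2 and 123.729 kb between the starts of Gbp5 and Gbp2. Igtp and the related gene Gm12250 start 15.713 kb apart on chromosome 11, and Irgm1 starts 9328.14 kb from Igtp on the same chromosome. Each line holds the 250 bases before the start site, 5′ to 3′ along the gene, with motif matches in capitals. GAS was searched as TTCNNNGAA, which reads the same on both strands, and ISRE as GAAA, any 2 bases and GAAA on the gene's strand, or TTTC, any 2 bases and TTTC for the other strand. For Gbp3, which has 2 listed start sites, the upstream one is shown.
Gbp5, chr3:142496684-142496933, plus strand: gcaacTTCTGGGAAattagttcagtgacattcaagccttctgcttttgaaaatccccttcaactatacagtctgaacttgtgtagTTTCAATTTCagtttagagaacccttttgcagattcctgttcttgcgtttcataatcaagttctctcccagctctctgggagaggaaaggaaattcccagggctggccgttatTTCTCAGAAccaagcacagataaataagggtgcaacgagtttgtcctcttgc
Gbp7, chr3:142530086-142530335, plus strand: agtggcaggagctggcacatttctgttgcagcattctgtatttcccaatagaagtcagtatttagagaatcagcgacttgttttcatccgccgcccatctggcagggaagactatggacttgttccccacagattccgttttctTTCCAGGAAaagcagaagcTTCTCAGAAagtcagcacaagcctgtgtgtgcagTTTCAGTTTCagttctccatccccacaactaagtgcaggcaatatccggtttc
Gbp3, chr3:142559794-142560043, plus strand: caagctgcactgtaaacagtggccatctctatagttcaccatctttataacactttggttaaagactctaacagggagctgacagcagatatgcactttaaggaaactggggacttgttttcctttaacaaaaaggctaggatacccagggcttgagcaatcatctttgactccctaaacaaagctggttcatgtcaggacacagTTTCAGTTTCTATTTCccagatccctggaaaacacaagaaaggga
Gbp2, chr3:142620413-142620662, plus strand: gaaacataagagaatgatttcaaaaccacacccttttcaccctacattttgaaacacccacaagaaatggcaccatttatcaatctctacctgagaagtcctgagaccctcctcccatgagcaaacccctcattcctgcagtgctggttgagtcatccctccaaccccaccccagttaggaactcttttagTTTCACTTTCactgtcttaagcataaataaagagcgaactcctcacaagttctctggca
Igtp, chr11:58199306-58199555, plus strand: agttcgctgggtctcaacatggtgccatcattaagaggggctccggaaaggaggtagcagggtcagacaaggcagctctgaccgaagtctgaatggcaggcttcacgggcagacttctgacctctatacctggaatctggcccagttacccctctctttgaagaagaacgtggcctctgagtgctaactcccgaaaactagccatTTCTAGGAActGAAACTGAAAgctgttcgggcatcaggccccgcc
Irgm1, chr11:48871421-48871670, minus strand: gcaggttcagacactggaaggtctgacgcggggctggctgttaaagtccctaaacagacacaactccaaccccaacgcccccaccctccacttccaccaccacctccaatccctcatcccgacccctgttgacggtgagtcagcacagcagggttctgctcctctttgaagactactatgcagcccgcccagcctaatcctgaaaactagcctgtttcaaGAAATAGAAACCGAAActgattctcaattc
Gm12250, chr11:58183593-58183842, plus strand: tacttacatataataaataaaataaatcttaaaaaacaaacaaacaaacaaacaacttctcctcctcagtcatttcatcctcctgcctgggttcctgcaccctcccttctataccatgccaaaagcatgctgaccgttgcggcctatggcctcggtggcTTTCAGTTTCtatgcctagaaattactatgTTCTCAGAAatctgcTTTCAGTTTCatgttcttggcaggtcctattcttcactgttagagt

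Each of the 6 genes with values held an ISRE match within 250 bases upstream of a start site. In Gbp3 and Irgm1 a pair of ISRE matches overlapped, and the later start site of Gbp3 had no match. A GAS match was found in 3 of the 6 genes, Gbp5 and Gbp7 with 2 each and Igtp with 1. Over all 32851 RefSeq promoters, GAS letters occurred within the same 250 upstream bases in 7.02% and ISRE letters in 2.98%. In Igtp, GAS began 45 bases before the start and ISRE 34 bases before it, with the letters ct between them. In Gbp5, the nearer GAS began 52 bases before the start. These are matches of letters, and no binding was measured.

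**Figure D1:**
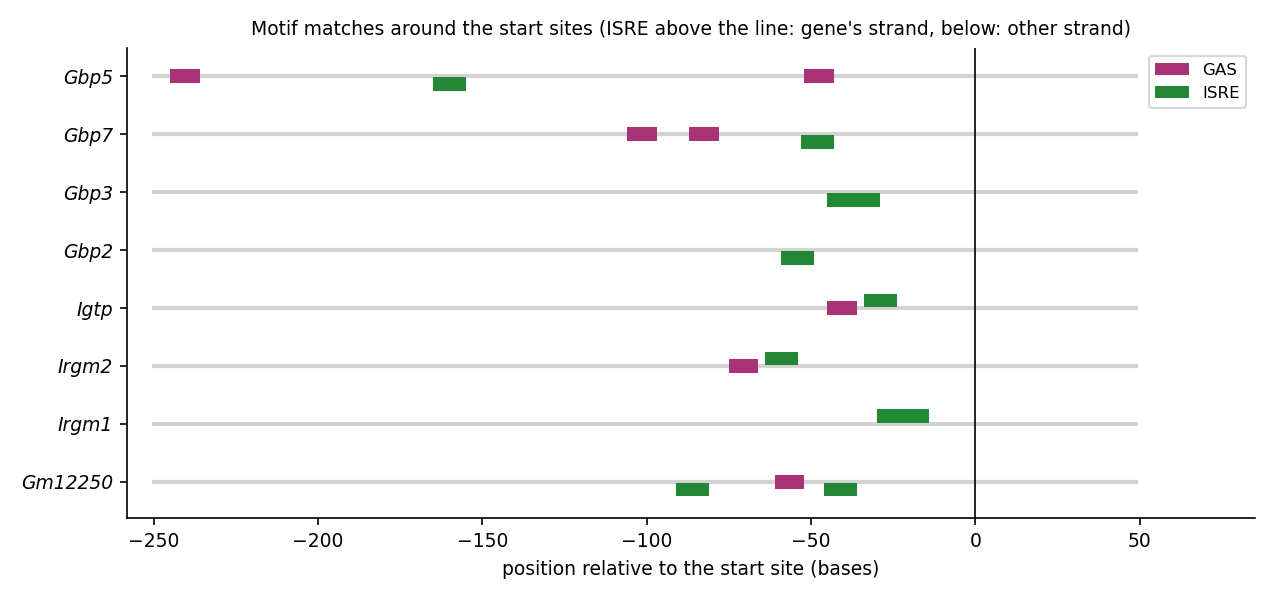
Positions of GAS and ISRE letters around the RefSeq start sites (x axis, bases, with the start at 0) for the members with a promoter entry and for Gm12250. Irgm2 is drawn by its promoter entry only. ISRE boxes above the line lie on the gene's strand and those below on the other strand, and the longer boxes of Gbp3 and Irgm1 are 2 overlapping matches. All matches lie before the start, 245 bases or less from it.

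The 7 libraries held 14527445 to 23388710 reads, so that 1 read was worth 0.0428 to 0.0688 RPM and 3 reads, taken as the floor, 0.128 to 0.207 RPM. Differential expression was tested with limma on log2(RPM + 1) over all genes, and a gene was called at an unadjusted p under 0.05 with a fold change above 1.5, the study's own thresholds. Of 23930 genes 615 (2.57%) were called, 343 higher (1.43%) and 272 lower (1.14%) in hypercapnia, against 294 and 508 in edgeR with a filter. No gene had an adjusted p under 0.05 in limma, where 1114 genes (4.66%) had an unadjusted p under 0.05, and none did in edgeR, against 29 (0.223%) in DESeq2. NC3 stood apart, with 16.6% of its reads in 10 genes against 8.36% to 12.1% in the others and 8142 genes at 0 against at most 7122 elsewhere, so each fold change printed for a member or for a called gene is given with and without it. The hypercapnia libraries fell into 2 pairs. Their read counts differed by a chi-square per degree of freedom (1 is counting noise alone) of 22.5 between HC1 and HC2 and 26.0 between HC3 and HC4, against 98.5 to 124 across the pairs. NC1 and NC2 were divided in the same way. Over 8229 genes, deviations of NC1 from its group mean correlated with those of HC3 and HC4 at 0.393 and 0.388. With HC1 and HC2 they stood at −0.375 and −0.427. NC2 went the reverse way, at 0.436 and 0.509 with HC1 and HC2 and −0.522 and −0.393 with HC3 and HC4. NC3 stood at −0.062 to 0.028. These values are not independent, since deviations within a group cancel. Leaving out NC1 gave 1990 called genes, 1495 of them higher, against 616 called without NC3. Pax7, the gene that drives the reporter's Cre, ran from 4.34 RPM in NC3 to 268 RPM in NC1, and the summed RPM of 9 macrophage markers from 11407 in NC1 to 34176 in NC3. Under the label of Pax7+ stem cells, each library thus held macrophage transcripts, among them Lyz2 (lysozyme 2) at 8354 to 29108 RPM. Because these are bulk samples, fewer cells of a type and less RNA per cell cannot be told apart.

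Values below follow the order NC1, NC2, NC3 for normocapnia and HC1, HC2, HC3, HC4 for hypercapnia. In hypercapnia, all 6 GTPase genes with values had a higher mean of log2(RPM + 1), by differing amounts. With all 7 libraries, Igtp, Gbp5 and Gbp2 stood at 1.54 to 2.0 on the log2 scale, with no overlap between the groups. Gbp3, Irgm1 and Gbp7 stood at 0.06 to 0.49, with overlapping groups. Gbp5 was the only member called (1 of 6), beside 1.43% of all genes called higher and 3.07% of the 8229 genes that averaged at least 10 RPM, the range in which all 6 members lay. Groups that did not overlap, with hypercapnia higher, were seen in 3 of 6 members, against 2.53% of all genes and 4.96% of those with at least 10 RPM. By sign alone, 53.7% of all genes and 59.5% of genes with at least 10 RPM were higher. The median log2 fold change of the 6 was 1.01, against 0.13 over genes with at least 10 RPM. Without NC3 it was 0.50, with 2 members called, Gbp5 (1.08) and Igtp (0.93), and Gbp2 (0.45) then lay below Gbp3 (0.55) and near Irgm1 (0.40). In that fit 235 of 23930 genes were called higher and 381 lower. The median over genes with at least 1 RPM was then −0.07, against 0.16 with all 7 libraries and 0.36 without NC1. Without NC1, Gbp5 (1.98) alone was called, with Igtp at 2.46 and Gbp2 at 2.12, beside 1495 of 23930 genes called higher.

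Gbp5, a guanylate-binding protein that assists assembly of the NLRP3 inflammasome, was measured at 14.8, 10.5 and 3.51 RPM in normocapnia. In hypercapnia it was at 30.3, 28.3, 31.1 and 21.5 RPM. All 4 hypercapnia libraries lay above the highest normocapnia library, and the lowest value of all, in NC3, rested on 51 reads (95% exact binomial interval 2.61 to 4.62 RPM). The means were 9.61 ± 5.70 RPM (SD, n = 3) in normocapnia and 27.8 ± 4.37 RPM (SD, n = 4) in hypercapnia. Its log2 fold change of 1.61 (SE 0.45) passed both thresholds in limma, with an adjusted p of 0.888. Without NC3 the log2 fold change fell to 1.08 and the call held. Over the alternatives the adjusted p ran from 0.0608 (DESeq2) to 0.961, so Gbp5 did not pass the threshold after adjustment in any of them.

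Igtp, a regulatory immunity-related GTPase of the endoplasmic reticulum, stood at 15.5, 19.3 and 0.964 RPM in normocapnia. Hypercapnia gave 42.4, 42.9, 28.0 and 25.3 RPM. The groups did not overlap, and NC3 was again far below the other normocapnia libraries, with 14 reads (95% exact binomial interval 0.527 to 1.62 RPM). Mean levels were 11.9 ± 9.67 RPM (SD, n = 3) and 34.7 ± 9.31 RPM (SD, n = 4), a log2 fold change of 2.0 (SE 0.88). With all 7 libraries Igtp was not called (limma adjusted p = 0.915). It was called without NC3, at a log2 fold change of 0.93, and without NC2, at 2.61.

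Gbp2, a prenylated guanylate-binding protein that is recruited to pathogen vacuoles, was at 13.9, 12.2 and 0.482 RPM in normocapnia. Its hypercapnia values were 22.1, 20.2, 16.4 and 15.1 RPM. Here too the groups were apart, though HC4 exceeded NC1 by little, and NC3 held 7 reads (95% exact binomial interval 0.194 to 0.993 RPM). The means were 8.88 ± 7.32 RPM (SD, n = 3) and 18.5 ± 3.24 RPM (SD, n = 4), and the log2 fold change of 1.54 (SE 0.87) was not called (limma adjusted p = 0.915). Without NC3 the log2 fold change was 0.45, again not called.

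Gbp3, whose product belongs to the guanylate-binding proteins without a prenylation motif in the mouse, differed from these genes in that NC3 was not low. It was measured at 18.2, 16.4 and 19.6 RPM in normocapnia and at 26.8, 29.4, 30.6 and 18.0 RPM in hypercapnia. Of the hypercapnia libraries, HC1 to HC3 lay above all normocapnia libraries and HC4 lay among them. Means were 18.1 ± 1.60 RPM (SD, n = 3) and 26.2 ± 5.70 RPM (SD, n = 4). The log2 fold change was 0.49 (SE 0.20) and was not called (limma adjusted p = 0.915). Without HC4 it was 0.65 and called, and without NC3 it was 0.55 and not called.

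Irgm1, the regulator of Irg proteins on the Golgi and lysosomes, gave 13.1, 28.1 and 17.1 RPM in normocapnia. Values of 33.4, 36.2, 22.9 and 15.6 RPM were found in HC1 to HC4. HC1 and HC2 lay above all normocapnia libraries, while HC3 and HC4 lay within the normocapnia range. Group means stood at 19.5 ± 7.78 RPM (SD, n = 3) and 27.0 ± 9.52 RPM (SD, n = 4). The log2 fold change was 0.45 (SE 0.39, limma adjusted p = 0.915), and 0.40 without NC3, 0.22 without NC1, 0.29 without HC2, 0.68 without HC4 and 0.74 without NC2, not called in any of these. Gbp7, a guanylate-binding protein linked to oxidative and autophagic defense, was highest in NC3 and lowest in NC1, with 29.0, 47.3 and 66.1 RPM in normocapnia. The hypercapnia values stood at 56.8, 52.4, 43.2 and 37.2 RPM, so that the highest and the lowest library of all were both normocapnia. Its means were 47.5 ± 18.6 RPM (SD, n = 3) and 47.4 ± 8.84 RPM (SD, n = 4), with a log2 fold change of 0.06 (SE 0.31), whose sign was negative in 6 of the 16 alternatives, among them median-of-ratios scaling (−0.088), edgeR with a filter (−0.23) and DESeq2 (−0.28). Without NC3 it was 0.33.

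**Figure D2:**
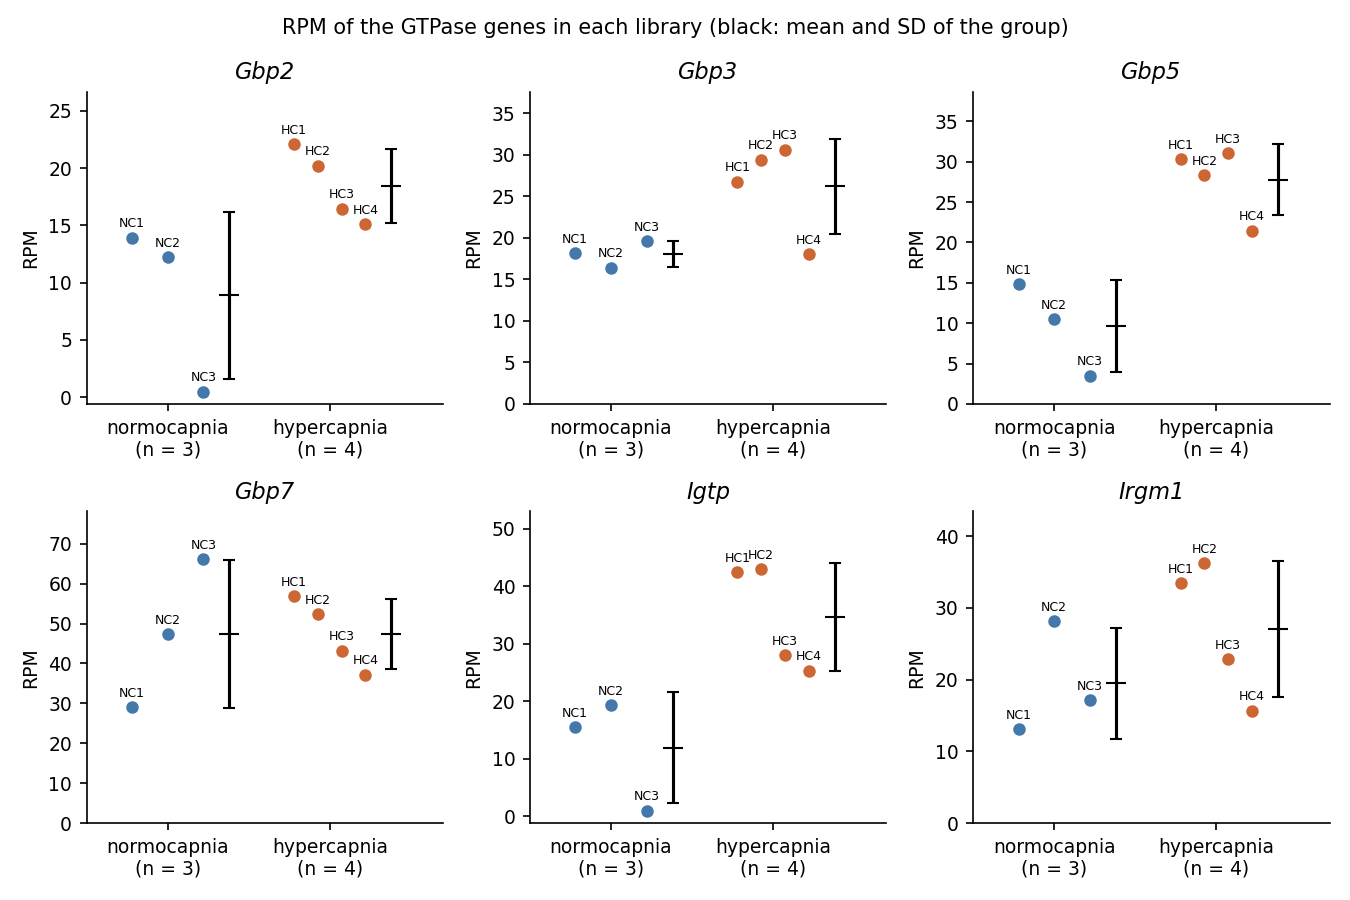
RPM (y axis, linear) of the 6 GTPase genes with values in each library, normocapnia in blue and hypercapnia in orange, with the group mean and SD in black. In Gbp2, Gbp5 and Igtp all hypercapnia libraries lie above all normocapnia libraries and NC3 is the lowest, whereas in Gbp7 NC3 is the highest at 66.1 RPM.

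**Figure D3:**
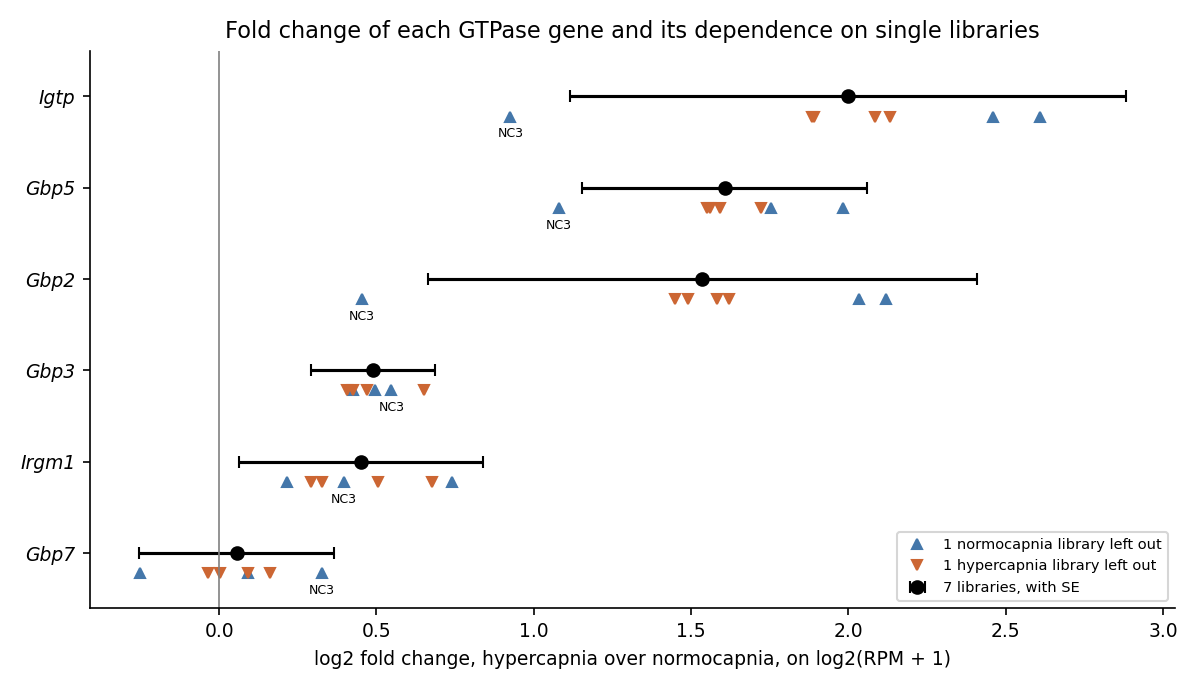
Log2 fold change of each GTPase gene (x axis, hypercapnia over normocapnia on log2(RPM + 1)) with its SE in black, and below it the same value with 1 library left out (blue triangles for normocapnia, orange for hypercapnia). Leaving out NC3 moves Igtp from 2.0 to 0.93, Gbp2 from 1.54 to 0.45 and Gbp5 from 1.61 to 1.08.

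The members did not vary as a block across the 7 libraries. As a description over 7 libraries that share their group difference, the Pearson r of log2(RPM + 1) was 0.985 between Gbp2 and Igtp, 0.943 between Gbp5 and Igtp and 0.921 between Gbp2 and Gbp5. Gbp7 ran against these 3 genes, at −0.466 with Gbp2, −0.323 with Igtp and −0.305 with Gbp5. In the 6 libraries without NC3 the same 3 pairs with Gbp7 stood at 0.630, 0.818 and 0.431, and Gbp7 with Irgm1 at 0.967. All pairs of members were then positive, the lowest being Gbp5 with Irgm1 at 0.355. Within hypercapnia, HC4 was the lowest library for all 6 genes. HC1 and HC2 both lay above HC3 and HC4 in Gbp2, Gbp7, Igtp and Irgm1, but not in Gbp5 and Gbp3, where HC3 was the highest. Summed over the 6 genes, the level was 104, 134 and 108 RPM in normocapnia and 212, 209, 172 and 133 RPM in hypercapnia.

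Levels of other cell types' markers moved between libraries beside these values. The 9 macrophage markers summed to 18804 to 23380 RPM in hypercapnia, inside the normocapnia range of 11407 to 34176 RPM, and 1 of the 9 was called, Adgre1 (F4/80), at 109, 149 and 70.5 RPM in normocapnia and 392, 429, 151 and 184 RPM in hypercapnia. By sign 6 of the 9 were higher and 3 lower, beside 53.7% of all genes higher by sign and 1.43% called higher. Adgre1 had a log2 fold change of 1.31 (SE 0.49, limma adjusted p = 0.915) and was not called without NC3 (1.03), without NC1, HC1 or HC2 (1.08 to 1.34) or with median-of-ratios scaling (1.17). Of its complement genes, C1qb was read in all 7 libraries (158 to 1061 RPM), as was C1qc (0.069 to 16.0 RPM), whereas C1qa was at 0 in NC3 and HC3 and at most 0.452 RPM in the others. The 9 markers of T and NK cells, known sources of interferon-gamma, summed to 1.24 to 14.4 RPM in normocapnia and 8.12 to 10.2 RPM in hypercapnia with none called. Klrb1c (0.344 to 7.36 RPM) and Cd4 (0.688 to 6.63 RPM) were read in all 7 libraries, while Cd3d, part of the T cell receptor complex, was at 0 in 4 of 7 libraries and at most 0.089 RPM in the others. None of the 8 satellite cell markers with values was called, and none of the endothelial, fibro-adipogenic, dendritic cell, neutrophil or B cell markers was. Several of these sums divided the hypercapnia libraries into the same pairs. Satellite cell markers summed to 81.5 to 1603 RPM in normocapnia, to 227 and 218 RPM in HC1 and HC2 and to 711 and 514 RPM in HC3 and HC4. Endothelial markers summed to 77.0 to 228 RPM in normocapnia, 72.2 and 56.3 RPM in HC1 and HC2 and 518 and 390 RPM in HC3 and HC4. In the same order, fibro-adipogenic markers summed to 965 to 1718, 971 and 833, and 1690 and 2137 RPM. HC3 and HC4 were also above HC1 and HC2 in dendritic cell markers (52.1 to 57.5 against 8.22 to 12.5 RPM) and neutrophil markers (194 to 288 against 78.0 to 112 RPM), whereas normocapnia ran from 8.17 to 83.0 and from 64.8 to 214 RPM. NC1 was the highest normocapnia library in the satellite cell, endothelial, fibro-adipogenic, dendritic cell and neutrophil sums. Of the macrophage markers, Adgre1, C1qa, C1qb, C1qc, Cd68 and Mrc1 ran the other way, with HC1 and HC2 above HC3 and HC4. Lyz2, Csf1r and Itgam did not divide the pairs. Gbp2, Gbp7, Igtp and Irgm1 ran as Adgre1 did. B cell markers stood at 7.78 to 16.2 RPM in normocapnia and 11.0 to 13.1 RPM in hypercapnia. The part of these cells, and of the division into pairs, in the GTPase levels was not tested.

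Of 18 other genes of the same families that were listed, 11 had values, of which 9 were higher and 2 lower by sign, 5 had a mean under 1 RPM, and the median log2 fold change was 0.25. Only Gm12250, an Irg-type gene beside Igtp, was called. It was at 9.90, 13.9 and 7.57 RPM in normocapnia and at 44.0, 51.7, 25.2 and 16.8 RPM in hypercapnia. Its groups did not overlap, HC1 and HC2 lay above HC3 and HC4, and NC3 was not far below the other normocapnia libraries. The log2 fold change was 1.54 (SE 0.45, limma adjusted p = 0.909), and the call was lost without NC3 (1.35) and with quantile normalization (1.32). Gbp9, named here after its values were seen, was at 24.6, 11.3 and 2.07 RPM and at 37.2, 43.5, 24.1 and 26.2 RPM in the same order, with NC1 above HC3 and no call (log2 fold change 1.73, SE 0.75). It was called in 7 of 16 alternatives, among them edgeR, DESeq2 and leaving out NC1 (2.42), and not without NC3 (0.89). Both families hold close paralogs, and how reads that match several copies were assigned is not given in the sources used here. The split of reads between such copies is therefore uncertain.

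With all 7 libraries, none of the genes of interferon-gamma signaling was called. Of 14 listed genes 12 had values, 6 higher and 6 lower by sign, with a median log2 fold change of −0.01. Ifng, the ligand, was at 0.580, 0.086 and 0 RPM in normocapnia and at 0.514, 0.151, 0.375 and 2.505 RPM in hypercapnia, the last from 37 reads. At this depth a count of 0 in NC3 allows up to 0.207 RPM, and the log2 fold change of 0.51 (SE 0.43) was not called. At these few reads its size was not stable, at 0.16 without HC4, 1.504 with a pseudocount of 0.1 RPM, 2.01 in edgeR with a filter and 2.03 in DESeq2, none of them called. Ifngr1, the ligand-binding receptor chain, was at 348, 516 and 1038 RPM in normocapnia and at 251, 228, 323 and 356 RPM in hypercapnia. NC1 fell just under HC4, so that the groups overlapped, and the log2 fold change of −1.0 (SE 0.40, limma adjusted p = 0.915) was not called. It was called lower in 5 of 16 alternatives, in DESeq2 (−1.49), in both edgeR fits (−1.43 and −1.39), after filtering and without NC1 (−1.36), and stood at −0.57 without NC3, not called. Ifngr2, the signal-transducing chain, ran from 89.8 to 203 RPM in normocapnia and from 86.4 to 110 RPM in hypercapnia (log2 fold change −0.41, SE 0.29), and its log2 fold change was −0.075 without NC3, −0.66 without NC1 and −0.81 in DESeq2. Jak1, the kinase on the Ifngr1 chain, ran from 395 to 526 and from 379 to 625 RPM (log2 fold change 0.11, SE 0.20).

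Of 17 other listed targets of interferon-gamma 16 had values, 13 higher and 3 lower by sign, with a median log2 fold change of 0.34. Of the 16, 1 was called, beside 1.43% of all genes called higher and 3.07% of those with at least 10 RPM. The called target was Cxcl10, a chemokine for T cells, at 68.9, 79.4 and 24.5 RPM in normocapnia and 151, 86.7, 187 and 109 RPM in hypercapnia. Its groups did not overlap, with HC2 close above NC2. The log2 fold change was 1.30 (SE 0.50, limma adjusted p = 0.915), and it was not called without NC3 (0.78) or without NC1, HC1, HC3 or HC4 (1.12 to 1.51). As in Gbp2, Gbp5 and Igtp, NC3 was the lowest library.

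**Figure D4:**
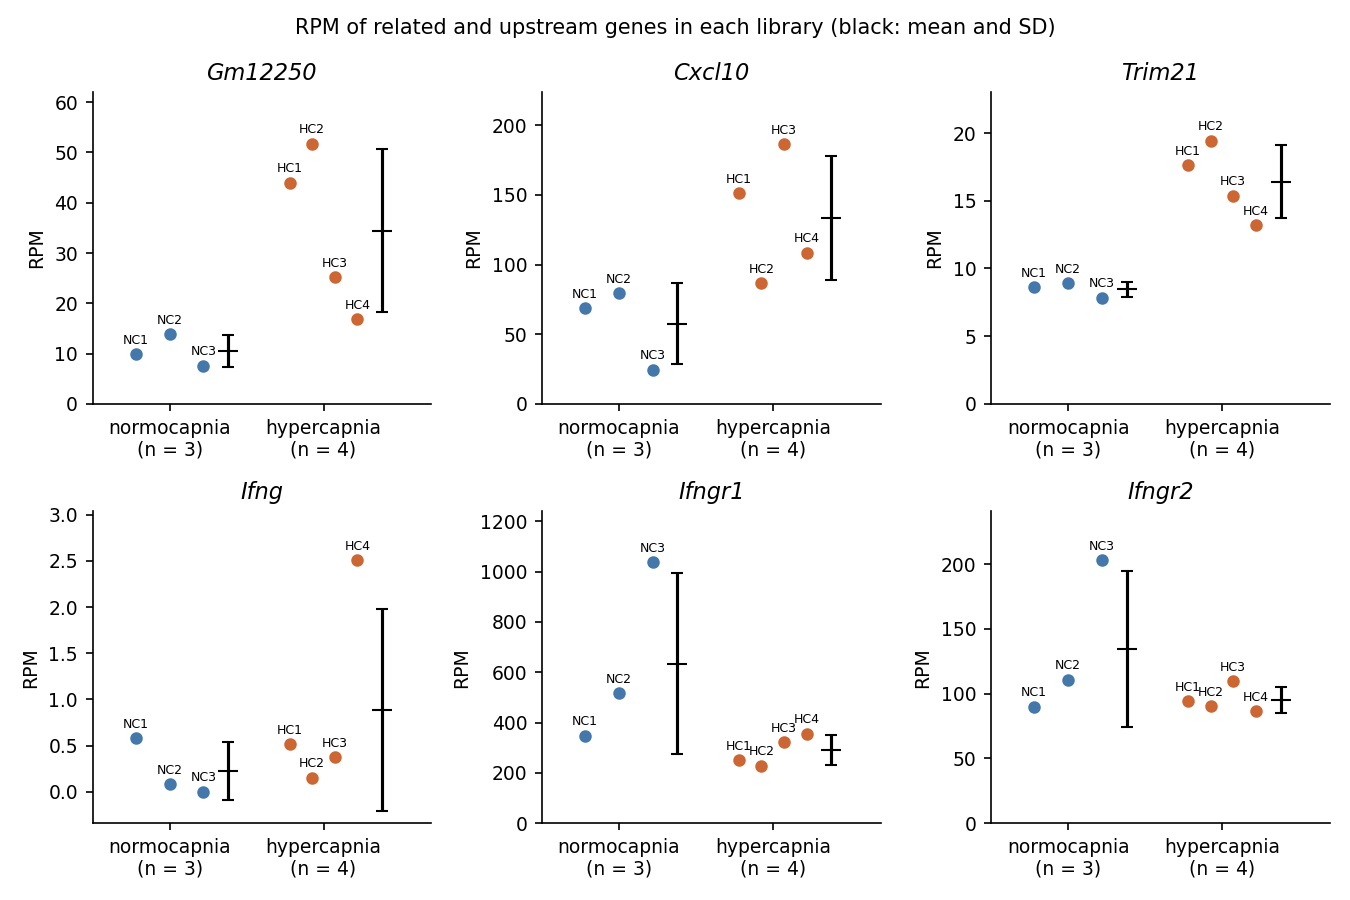
RPM (y axis, linear) of Gm12250, Cxcl10, Trim21 and of the interferon-gamma ligand Ifng and its receptor chains Ifngr1 and Ifngr2 in each library, with group mean and SD in black. Gm12250, Cxcl10 and Trim21 are higher in all hypercapnia libraries than in all normocapnia libraries, and Ifng reaches 2.505 RPM at most.

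Of 13 listed genes of autophagy conjugation, which helps to load the GTPases onto vacuoles, and its ubiquitin-linked partners 11 had values, 5 higher and 6 lower by sign, with a median log2 fold change of −0.02. Gabarap and Trim21 were called higher, 2 of 11, beside 1.43% of all genes and 3.07% of those with at least 10 RPM. Gabarap, an ATG8-family protein of autophagosome membranes, was at 1417, 1389 and 1468 RPM in normocapnia and at 2424, 2387, 1919 and 2373 RPM in hypercapnia (log2 fold change 0.67, SE 0.09, limma adjusted p = 0.492). Its groups were clearly separate and the call held without NC3 (0.69), but not in DESeq2, in edgeR or after median-of-ratios scaling (0.49 to 0.56). Trim21, an interferon-inducible ubiquitin ligase and antibody receptor, was at 8.61, 8.89 and 7.85 RPM in normocapnia and at 17.6, 19.4, 15.4 and 13.2 RPM in hypercapnia. With a log2 fold change of 0.87 (SE 0.13, limma adjusted p = 0.564, and 0.82 without NC3) it was called, though not with quantile normalization or in edgeR without a filter.

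The 8 inflammasome genes, whose proteins guanylate-binding proteins help to activate, were 4 higher and 4 lower by sign, with a median of 0.17. Of the 8, 1 was called, beside 1.43% of all genes called higher and 3.07% of those with at least 10 RPM. Il18, the precursor of an interferon-gamma-inducing cytokine, was called at 23.8, 16.5 and 39.99 RPM in normocapnia and 68.7, 83.0, 43.4 and 36.5 RPM in hypercapnia (log2 fold change 1.10, SE 0.42, limma adjusted p = 0.915). HC4 lay below NC3. Without NC3 the log2 fold change was 1.42, still called, and the call was lost in 11 of 16 alternatives, among them edgeR, DESeq2 and leaving out NC1, NC2, HC1, HC2 or HC3 in turn. None of the 5 enzymes that prenylate and process proteins such as Gbp2 and Gbp5 was called, with 3 higher and 2 lower by sign and a median of 0.08. Pggt1b, a subunit of the enzyme that adds geranylgeranyl groups, ran from 52.8 to 79.1 RPM in normocapnia and from 54.6 to 64.4 RPM in hypercapnia. Fnta, a subunit which that enzyme shares with the one that adds farnesyl groups, ran from 38.7 to 85.2 and from 35.3 to 41.0 RPM.

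**Figure D5:**
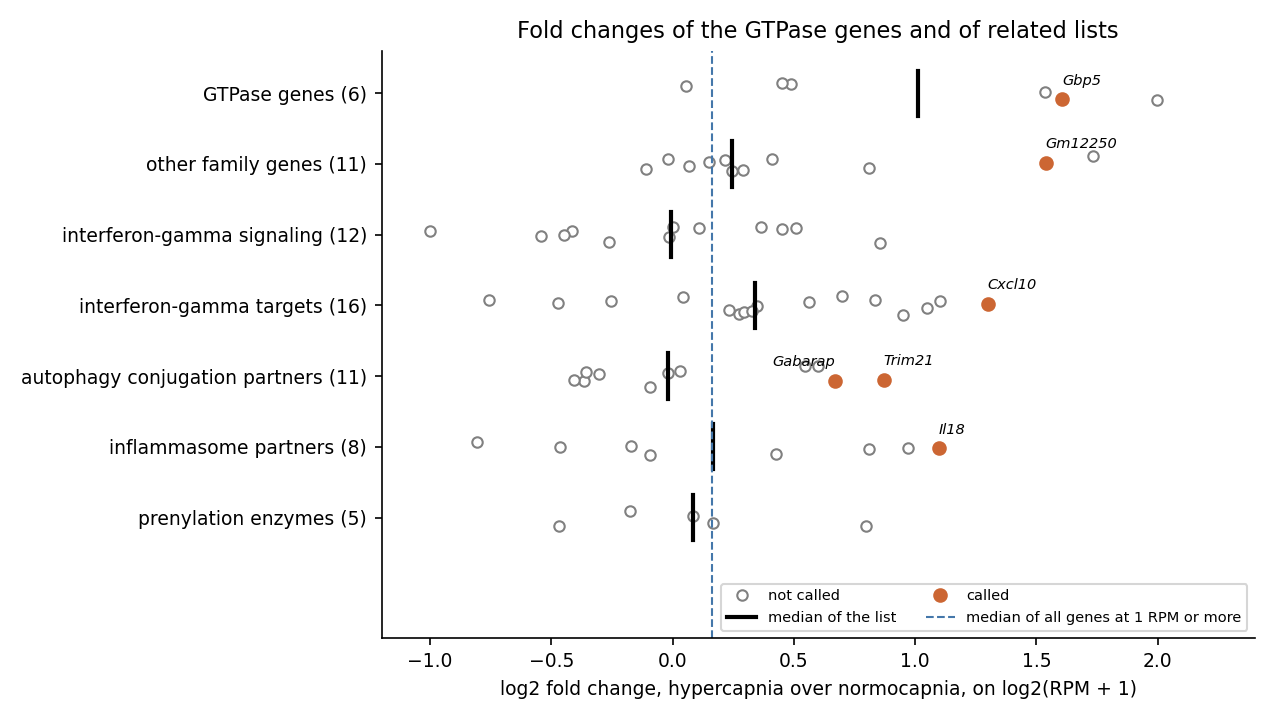
Log2 fold changes (x axis, on log2(RPM + 1)) of the GTPase genes and of 6 related lists, 1 point per gene, filled where called, with the list median as a black bar and the median of genes with at least 1 RPM (0.16) as a dashed line. The median of the GTPase genes is 1.01, and those of the other lists run from −0.02 to 0.34.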

How the data were processed

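The authors sorted Pax7-GFP+ cells by FACS, made Ion AmpliSeq mouse transcriptome libraries (1 amplicon per gene), read them on an Ion S5 sequencer and deposited RPM values, that is, reads on each amplicon relative to all reads assigned to the panel. Aligner and genome build: not given in the sources used here. The submitters' processing notes name the Transcriptome Analysis Console. RPM depends on the amplicon, so levels of different genes are not comparable, and an order by mean RPM serves only to choose which genes are named. Whole reads were recovered from the RPM steps: 100% of values were whole within 0.05 reads, and this step, tested on simulated libraries, was right in 3 of 3. Counting noise was exceeded by the difference within each of the 21 library pairs. Intervals (95%, Clopper-Pearson) and floors cover counting error only.

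Groups came from the sample labels. limma 3.58.1 (R 4.3.3) was fitted to log2(RPM + 1) of all 23930 genes, unfiltered, with 3 against 4 libraries, with Benjamini-Hochberg adjustment. Fold changes are on the log2(RPM + 1) scale, which understates those of low genes. On simulated reads with 200 of 23930 genes changed 4-fold, limma called 100% of them at a dispersion of 0.02 and 64% at 0.4, along with 0.0126% and 3.32% of the unchanged genes. The alternatives were DESeq2 1.42.0 and edgeR 4.0.16 (quasi-likelihood, with or without its filter) on recovered reads, quantile normalization, median-of-ratios scaling, another pseudocount (0.1 or 5 RPM), removal of genes averaging under 1 RPM, leaving out each library, and the replicate number as a block.

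The members and gene lists were chosen with earlier results of these data known. Named in the text are all members with values, the called genes of each pathway list or otherwise the 2 with the highest mean RPM, the interferon-gamma ligand and receptors, the 10 genes most like the members' mean pattern, and the 3 most like Gbp5, Igtp and Irgm1. Gbp9 and the cell type markers named in the text (Pax7, Lyz2, Adgre1, C1qa, C1qb, C1qc, Cd68, Mrc1, Csf1r, Itgam, Cd3d, Cd4 and Klrb1c) do not meet this rule: they were picked with their values in view. Promoters come from RefSeq (GRCm38.p6), which had entries for all 6 members with values.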

Additional observations from a re-analysis of the deposited data

Results flagged for a closer look

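Gabarap, the ATG8-family protein called higher in hypercapnia, had 1 library far from the other 3: HC3 at 1919 RPM against 2373 to 2424 RPM. Its gap to the nearest library was 0.899 of the group's range, above Dixon's 95% critical value for 4 samples. Among groups of this size chance gives such a gap in about 1 in 20, and 23 genes were examined in this way. HC3 still lay above all normocapnia libraries, which were at 1389 to 1468 RPM. Ifng, the interferon-gamma ligand, had HC4 at 2.505 RPM against 0.151 to 0.514 RPM in the other hypercapnia libraries, a gap of 0.846 of the range.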

How the results depend on the processing

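Over 16 alternatives, Gbp2, Gbp3, Gbp5, Igtp and Irgm1 kept their direction. Gbp5 was called in 15 of them. The number of members called was 2 with a pseudocount of 5 RPM, a filter, quantile normalization, edgeR without a filter and DESeq2, in each of which Igtp joined Gbp5, and 1 to 2 when single libraries were left out, Igtp joining without NC2 or NC3 and Gbp3 without HC4. Gbp7 turned to −0.088 after median-of-ratios scaling, −0.23 and −0.19 in edgeR with and without a filter, −0.28 in DESeq2, −0.25 without NC1 and −0.036 without HC1, and was highest without NC3, at 0.33. The members' median log2 fold change ran from 0.50 (without NC3) to 1.25 when single libraries were left out, and 5 or 6 members were higher. The 6 lists gave 5 called genes, 3 with quantile normalization and 3 (without HC1) to 9 (without NC2) with single libraries left out. All genes called were 615, against 1049 in edgeR without a filter, 1304 in DESeq2 and 376 to 1990 with single libraries left out. The median over genes with at least 1 RPM was 0.16, against 0.04 after median-of-ratios scaling and −0.01 after quantile normalization, and −0.01 in edgeR with a filter and −0.04 in DESeq2, which change the model as well as the scaling. Jak1 turned to −0.034 after median-of-ratios scaling, −0.059 and −0.036 in edgeR with and without a filter, −0.11 in DESeq2 and −0.020 without HC4 and under the replicate block, its highest value being 0.24 without NC3. The causes were not tested.

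Replicate numbers did not pair the libraries: deviations of NC1 and HC1, NC2 and HC2, and NC3 and HC3 from their group means correlated at −0.375, 0.509 and 0.028 over 8229 genes. With the replicate number as a block, which drops HC4, 1 member was called, Gbp3 (0.65) in place of Gbp5 (1.72), Cxcl10, Il18 and Parp12 were not called, and 598 genes were called in all. Depth limited Ifng and the Gbp and Irg genes under 1 RPM, which rest on a few reads.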

Other observations

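Among 8223 genes averaging at least 10 RPM, members left out, the 10 genes whose log2(RPM + 1) followed the members' mean pattern most closely over the 7 libraries had a Pearson r of 0.963 to 0.989. They were Wdr1, Zbp1, Cryzl1, Gm12250, Sh3gl1, Rsad2, Commd9, Bin2, Slfn5 and Snrnp25, and 6 of the 10 were called higher in hypercapnia. These values share libraries and group difference with the pattern they were ranked on, so they are a description and carry no test. Zbp1, a sensor of Z-form nucleic acids (r = 0.988), was at 17.9, 23.9 and 9.29 RPM in normocapnia and at 70.2, 65.0, 42.1 and 26.6 RPM in hypercapnia. Rsad2, the antiviral enzyme viperin (r = 0.974), was at 5.58, 11.0 and 5.78 RPM in normocapnia and at 44.3, 46.7, 22.1 and 13.3 RPM in hypercapnia. Their log2 fold changes were 1.52 (SE 0.46) and 1.84 (SE 0.52), with limma adjusted p of 0.915 and 0.888. Without NC3 they were 1.16, no longer called, and 1.71, still called, and Rsad2 was not called without NC1 (1.68) or with quantile normalization (1.59). In both, all hypercapnia libraries lay above all normocapnia libraries, with HC4 the lowest of the 4, as in each GTPase gene, and HC1 and HC2 above HC3 and HC4.

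The genes most like single members differed from these. Gbp5 was followed most closely by Haus8, Ppp1r11 and Gga2 (r = 0.986 to 0.995), Igtp by Zmat5, Slc45a4 and Parp12 (r = 0.996 to 0.9995), and Irgm1 by Ifi204, Psmb8 and B4galt6 (r = 0.980 to 0.985). Parp12, an interferon-inducible ADP-ribosyltransferase, was at 76.0, 94.9 and 21.1 RPM in normocapnia and at 169, 177, 122 and 116 RPM in hypercapnia, and was called higher (log2 fold change 1.40, SE 0.55, limma adjusted p = 0.915). The call held without NC3, at 0.75, and was lost without NC1, HC1, HC2, HC3 or HC4 (1.30 to 1.65). Psmb8, an immunoproteasome subunit, was not called, at 89.2 to 140 RPM in normocapnia and 87.9 to 178 RPM in hypercapnia.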
